A study of Homo sapiens with 4 samples.

Results

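Autophagy machinery genes encode the proteins that build the autophagosome, load it with cargo and join it to the lysosome. The 40 genes described here were given as a named list, from the ULK1 kinase complex to the transcription factors TFEB and TFE3. The rule of that list uses no measured value, although the list was drawn up with earlier results of these data known. They were read from RNA-seq count tables that hold 56655 gene symbols for each library, of which 16417 passed the filter on low counts. All 40 members passed it. The libraries came from OVCAR5, an established human cell line kept as a model of ovarian cancer. The control group, shCtrl, was OVCAR5 stably transduced with a lentiviral vector that carries a short hairpin RNA (shRNA) matching no human gene, and the shFOXK2 group carried in its place an shRNA against the transcription factor gene FOXK2. Each group was a puromycin-selected population with 2 libraries, which the series describes as biological duplicates, and the study's figure legends name the hairpin of the RNA-seq as shFOXK2-2, which the labels do not state. The p-values below measure the spread between these libraries. Whether the duplicates came from separate transductions is not stated.

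In macroautophagy a kinase complex started by nutrient signals activates a lipid kinase complex, and the lipid it makes on the endoplasmic reticulum marks where a cup-shaped membrane, the phagophore, will grow. Ubiquitin-like proteins of the ATG8 family are then coupled to that membrane by a chain of enzymes and hold cargo receptors, so that the closed autophagosome carries its load to the lysosome. FOXK1 and FOXK2 are forkhead transcription factors that are known from other cells as repressors of autophagy genes, and TFEB and TFE3 are known as activators of lysosome and autophagy genes, and the comparison asks how the transcripts of this machinery differed when FOXK2 was targeted.

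FOXK2 itself, the gene targeted by the hairpin, was measured in shCtrl at 80.5 and 93.4 CPM (read counts scaled to the size of the library) and in shFOXK2 at 76.4 and 59.6 CPM. Both shFOXK2 values lay below both shCtrl values, but the log2 fold change of -0.36 ± 0.25 (SE) did not pass the test (edgeR quasi-likelihood F test, adjusted p = 0.257). Its paralog FOXK1 fell from 207 and 204 to 96.0 and 88.1 CPM, a log2 fold change of -1.16 ± 0.23 (edgeR, adjusted p = 0.00111). With a correction for the A content of transcripts, described with the results it touches, the FOXK2 value was 0.06. By qRT-PCR and Western blot, the study reports less FOXK2 mRNA and protein in OVCAR5 with FOXK2 hairpins than in its controls.

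Library totals ran from 14284005 to 21950873 counts, so that 3 counts corresponded to between 0.134 and 0.211 CPM. Epithelial markers summed to 4075 to 5444 CPM in shCtrl and 4082 to 5298 CPM in shFOXK2, a sum carried by keratins. Of these 6 markers CDH1, which encodes E-cadherin, fell from 20.6 and 16.2 to 0.914 and 1.32 CPM (log2 fold change -4.02, edgeR adjusted p = 5.12e-06) and the other 5 were not called. Of the 5 ovarian serous markers, PAX8 (-0.88) and MUC16 (-5.76) were called lower and MSLN (1.11) higher, while WT1 had 0 to 2 counts and SOX17 0 to 3 counts. Of the 6 gastrointestinal markers, CDX2 with 125 to 230 counts and HNF4A with 49 to 106 counts were not called, LGALS4 was called higher from 3 and 1 to 15 and 16 counts, and CDX1 had none in any library. Summed leukocyte markers went from 17.6 to 22.4 CPM in shCtrl to 9.56 to 9.61 CPM in shFOXK2, nearly all of it CD14 (called lower at -1.14), with PTPRC, CD3E and CD68 at 3 counts or fewer. Summed fibroblast markers were at 18.9 to 20.4 against 13.5 to 16.4 CPM. Most of that sum was COL1A1 at a log2 fold change of 0.03, whereas PDGFRB fell from 5.69 and 5.42 to 0.141 and 0.44 CPM (log2 fold change -4.16, edgeR adjusted p = 3.32e-05) and COL1A2 and DCN had 3 counts or fewer. Endothelial markers summed to 7.72 to 10.6 against 0.633 to 2.03 CPM, with PECAM1 and CDH5 called lower and KDR at 1 count or fewer. The part of these marker differences in the results below was not tested. In a bulk library fewer cells of a kind and less RNA per cell cannot be told apart.

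The autophagy machinery was mostly lower in shFOXK2. Of the 40 genes, 22 fell and 3 rose past the threshold (edgeR quasi-likelihood F test, adjusted p under 0.05 over all tested genes), and 15 did not pass. Across all tested genes 22.7% were called lower and 25.7% higher, or 48.4% in either direction. The median log2 fold change of the members was -0.78, beside 0.04 for all tested genes. The 2 groups did not overlap in CPM for 33 members, with shFOXK2 below shCtrl for 26 of them and above for 7, and they overlapped for the remaining 7. For all tested genes 75.4% did not overlap, 36.2% below and 39.2% above. A fall beyond 1 on the log2 scale was called for 16 members and a fall beyond 2 for 4 members, against 16.7% and 5.27% of all tested genes. When the test itself asked for a change beyond 1 on the log2 scale (edgeR glmTreat), 12 members were called lower and 1 higher, beside 8.1% and 12.5% of all tested genes. The 3 members that rose were RB1CC1, ATG12 and TAX1BP1.

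**Figure D1:**
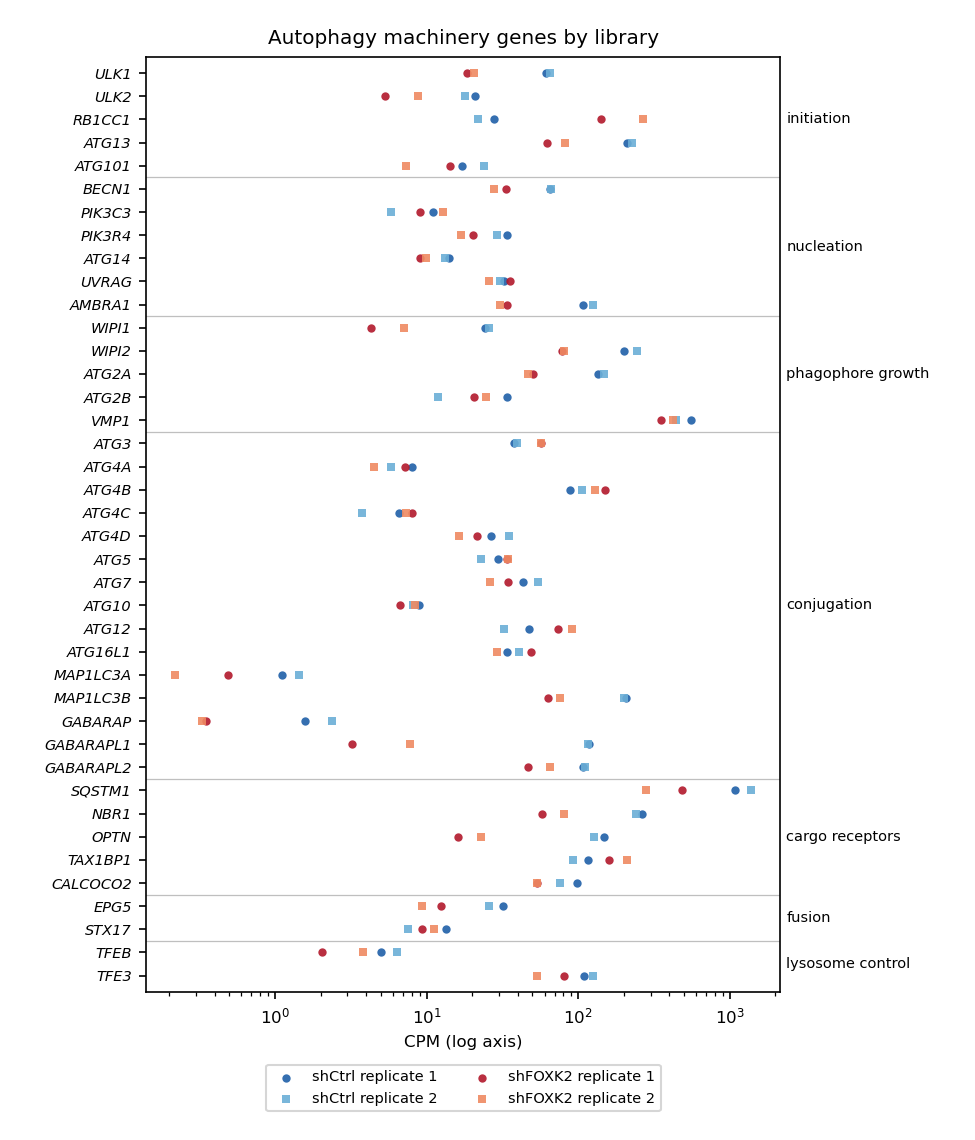
Level of each of the 40 genes in CPM (log axis) in the 4 libraries, ordered by the step of autophagy they serve. For GABARAPL1 the shFOXK2 points lie at 3.23 and 7.75 CPM, far to the left of the shCtrl points at 117 and 116, and for RB1CC1 they lie at 142 and 270 CPM, to the right of 28.0 and 22.

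Of the 5 genes of the initiating kinase complex, 4 fell and 1 rose. This count and those of the later steps stand against 22.7% called lower and 25.7% called higher among all tested genes. ULK1, the protein kinase that starts the pathway, was at 61.5 and 65.5 CPM in shCtrl and at 18.4 and 20.5 CPM in shFOXK2. That is 30.6% of the shCtrl mean, with a log2 fold change of -1.71 ± 0.26 (edgeR, adjusted p = 0.000162). ULK2, its close relative, went from 20.9 and 18 to 5.34 and 8.73 CPM (log2 fold change -1.46 ± 0.32, edgeR adjusted p = 0.00224). ATG13, the adaptor that ties the kinases to the rest of the complex, fell 3.02-fold, from 208 and 226 to 62.1 and 81.4 CPM, with a log2 fold change of -1.60 ± 0.24 (edgeR, adjusted p = 0.000183). In each of these genes the libraries of a group lay close together beside the gap between groups. ATG101, which stabilises ATG13, was called lower at -0.93 ± 0.34 (edgeR, adjusted p = 0.0385), with 17.2 and 23.9 CPM against 14.2 and 7.36. This call was lost without shCtrl replicate 2 (adjusted p = 0.087) and without shFOXK2 replicate 2 (adjusted p = 0.256), and the log2 fold change was -1.50 without shFOXK2 replicate 1.

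RB1CC1, which encodes the scaffold FIP200 on which the kinase complex assembles, went the other way. It was at 28.0 and 22 CPM in shCtrl and at 142 and 270 CPM in shFOXK2, an 8.24-fold rise and the largest change upward among the 40 genes. Its log2 fold change was 3.04 ± 0.32 (edgeR, adjusted p = 1.31e-05). The shFOXK2 libraries differed from each other by more than the shCtrl libraries did, yet each stood well above both controls. Per kilobase of transcript, the RB1CC1 level was 0.0860 and 0.0623 times that of ATG13 in shCtrl, and 1.47 and 2.12 times that of ATG13 in shFOXK2. This pair was chosen after the values were seen and is given as a description.

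Among the 6 genes of the lipid kinase complex that nucleates the phagophore, 3 fell and none rose. AMBRA1, a scaffold that binds beclin 1, had the largest fall of the step, from 107 and 124 to 33.8 and 30.6 CPM (log2 fold change -1.84 ± 0.25, edgeR adjusted p = 7.87e-05). BECN1, which encodes beclin 1, the regulatory subunit, was at 65.7 and 66.0 CPM in shCtrl and at 33.3 and 27.9 CPM in shFOXK2, a log2 fold change of -1.11 ± 0.25 (edgeR, adjusted p = 0.00281). The shCtrl libraries were thus almost equal for beclin 1, and the shFOXK2 mean was 46.5% of the shCtrl mean. PIK3R4, which encodes the VPS15 subunit, was called lower at -0.77 ± 0.27 (edgeR, adjusted p = 0.0293), a call that did not hold without shCtrl replicate 1 (adjusted p = 0.0697) or without shFOXK2 replicate 2 (adjusted p = 0.163). ATG14, the subunit that brings the complex to the endoplasmic reticulum, had 14.1 and 13.3 CPM against 9.0 and 10.0 CPM and did not pass (edgeR, adjusted p = 0.15).

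The catalytic subunit of that complex, VPS34, did not show the same pattern in its transcript. PIK3C3, its gene, was at 11.1 and 5.79 CPM in shCtrl and at 9.07 and 12.9 CPM in shFOXK2, and the groups overlapped (edgeR, adjusted p = 0.407). UVRAG, the subunit of the endosomal form of the complex, overlapped too, with 32.3 and 30.3 against 35.6 and 26 CPM. UVRAG had a log2 fold change of -0.03 ± 0.27 (edgeR, adjusted p = 0.945).

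Growth of the phagophore was represented by 5 genes, of which 3 fell. WIPI1 and WIPI2 encode proteins that read the lipid made by VPS34. WIPI1 went from 24.2 and 25.7 to 4.29 and 7.09 CPM, a log2 fold change of -2.12 ± 0.32 (edgeR, adjusted p = 0.000171). WIPI2, the member that recruits the conjugation machinery, went from 202 and 243 to 78.7 and 80.7 CPM, a log2 fold change of -1.48 ± 0.24 (edgeR, adjusted p = 0.000247). Of the lipid transfer proteins that feed the growing membrane, ATG2A fell from 136 and 148 to 50.5 and 46.4 CPM (log2 fold change -1.55 ± 0.24, edgeR adjusted p = 0.000198). For its paralog ATG2B the shCtrl libraries stood 2.87-fold apart, at 34.1 and 11.9 CPM, the widest gap between controls among the 40 genes. The shFOXK2 values of 20.5 and 24.5 CPM lay between them and no difference was called (edgeR, adjusted p = 0.948). The ATG2B value depends on which control is kept, since its log2 fold change was 0.88 without shCtrl replicate 1. VMP1, a lipid scramblase of the endoplasmic reticulum, was at 557 and 441 against 350 and 424 CPM (edgeR, adjusted p = 0.224). With an offset for the GC content of transcripts it was called lower (log2 fold change -0.81, edgeR adjusted p = 0.00575). VMP1 lies over the microRNA gene MIR21 on the same strand, and reads of the shared part cannot be told apart.

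The conjugation step is a chain of ubiquitin-like enzymes that couples ATG8 proteins to the membrane lipid. All 5 ATG8 family members on the list fell, whereas among the 4 ATG4 proteases that trim them none passed the test, and among the 6 genes of the coupling chain 1 fell and 1 rose. The difference between these subgroups was not itself tested. With 15 genes in all, the step had 6 called lower and 1 called higher, and a median log2 fold change of -0.24.

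GABARAPL1 (ENSG00000139112, chr12:10212458-10223128 in hg38, plus strand) had the largest fall of all 40 genes. It encodes an ATG8 protein of the GABARAP subfamily and had 2615 and 1866 counts in shCtrl and 46 and 141 counts in shFOXK2. In CPM these were 117 and 116 against 3.23 and 7.75, so that the shFOXK2 mean was 4.70% of the shCtrl mean. The controls were nearly equal, and the higher of the shFOXK2 libraries was still far under either. The log2 fold change was -4.39 ± 0.37 (edgeR, adjusted p = 2.73e-06), and it ranged from -3.94 without shFOXK2 replicate 1 to -5.20 without shFOXK2 replicate 2. MAP1LC3B, which encodes LC3B, the protein most used as a marker of autophagosomes, went from 206 and 199 to 63.3 and 76.0 CPM (log2 fold change -1.54 ± 0.24, edgeR adjusted p = 0.000191). GABARAPL2 fell less, from 107 and 111 to 46.6 and 65.2 CPM (log2 fold change -0.96 ± 0.26, edgeR adjusted p = 0.00709), and its call was lost without shFOXK2 replicate 1 (adjusted p = 0.0687).

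The other two family members were scarce. GABARAP had 35, 38, 5 and 6 counts in the order shCtrl 1 and 2 and shFOXK2 1 and 2, with a log2 fold change of -2.50 ± 0.51 (edgeR, adjusted p = 0.00131). In the annotation GABARAP overlaps another gene on its own strand. Reads that fall on both are dropped in the usual setting of the counting program, so the low count of GABARAP need not be its level in the cell. MAP1LC3A had 25, 23, 7 and 4 counts and was called lower at -1.86 ± 0.54 (edgeR, adjusted p = 0.0116), a call lost in DESeq2 (adjusted p = 0.0877), without shCtrl replicate 2 (adjusted p = 0.0882) and without shFOXK2 replicate 2 (adjusted p = 0.0827). Its log2 fold change was -2.51 without shFOXK2 replicate 1.

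Summed per kilobase of transcript, the ATG8 family stood at 270 and 272 CPM per kb in shCtrl and at 79.8 and 107 CPM per kb in shFOXK2. GABARAPL1 made up 23.0% and 22.7% of that sum in shCtrl, against 2.15% and 3.85% in shFOXK2. GABARAPL2 took 40.6% and 41.9% of the sum in shCtrl and 60.0% and 62.6% in shFOXK2, while the share of MAP1LC3B stayed between 33.1% and 36.9% in the 4 libraries. The sum and all shares are of counted reads. Reads of GABARAP may have been dropped in counting, so they need not give the make-up of the family in the cell. The ratio of GABARAPL1 to GABARAPL2, chosen after the values were seen, was 0.567 and 0.543 in shCtrl and 0.0359 and 0.0614 in shFOXK2. With 2 libraries against 2, an exact permutation test of such a ratio cannot give a 2-sided p below 0.333.

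**Figure D2:**
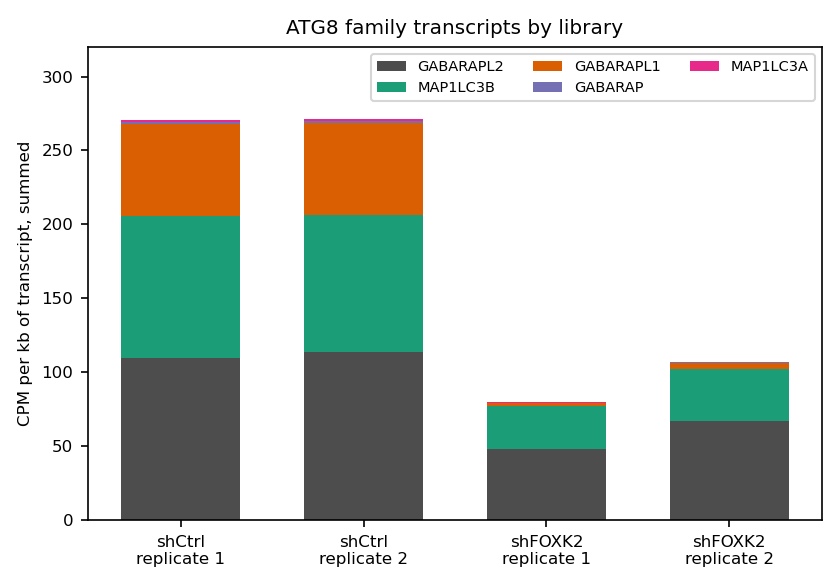
Stacked bars of the 5 ATG8 family transcripts in CPM per kilobase of transcript (kb), 1 bar for each library. The shCtrl bars reach 270 and 272 and the shFOXK2 bars 79.8 and 107, and the GABARAPL1 layer shrinks from 23.0% and 22.7% of the bar to 2.15% and 3.85%. The layers are of counted reads, and that of GABARAP need not be its level in the cell.

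ATG7, the activating enzyme shared by both conjugation reactions, was at 43.2 and 54.3 against 34.5 and 26.3 CPM and passed narrowly at -0.69 ± 0.27 (edgeR, adjusted p = 0.0483). That call was lost without shCtrl replicate 2 (adjusted p = 0.115) and without shFOXK2 replicate 2 (adjusted p = 0.275). ATG3, the enzyme that hands ATG8 to the lipid, was at 37.6 and 39.6 CPM in shCtrl and at 56.8 and 56.5 CPM in shFOXK2, and missed the threshold at 0.55 ± 0.25 (edgeR, adjusted p = 0.0777). It passed with an offset for GC content (log2 fold change 0.87, adjusted p = 0.0027) and with the offset for A content and a replicate block (0.54, adjusted p = 0.0304). ATG12, the ubiquitin-like protein joined to ATG5, rose from 47.5 and 32.5 to 73.5 and 90.5 CPM, a log2 fold change of 1.03 ± 0.27 (edgeR, adjusted p = 0.00661). Leaving out shCtrl replicate 2 gave an adjusted p of 0.0556 for ATG12 and leaving out shFOXK2 replicate 2 gave 0.052. ATG5, the partner of ATG12, lay at 29.6 and 23.0 against 34.2 and 34.7 CPM without passing (edgeR, adjusted p = 0.242). ATG10, the enzyme that transfers ATG12, and ATG16L1, which anchors the ATG12 and ATG5 conjugate to the phagophore, overlapped between groups, with log2 fold changes of -0.17 ± 0.31 and 0.06 ± 0.29.

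The ATG4 proteases process ATG8 proteins before coupling and release them afterwards. ATG4B, the most abundant of them per kilobase, was at 87.8 and 106 CPM in shCtrl and at 149 and 130 CPM in shFOXK2, and its log2 fold change of 0.53 ± 0.24 did not pass (edgeR, adjusted p = 0.0814). It was called higher with the offsets for A and GC content (0.99 and 0.97, edgeR adjusted p = 0.00113 and 0.00125). ATG4D, at 26.4 and 35.3 against 21.4 and 16.4 CPM, missed the threshold from the other side at -0.71 ± 0.28 (edgeR, adjusted p = 0.0526). With the DESeq2 Wald test ATG4D was called lower (-0.73, adjusted p = 0.0491), as it was in edgeR with DESeq2 size factors and without a filter. It passed without shCtrl replicate 1 (adjusted p = 0.0123) and without shFOXK2 replicate 1 (adjusted p = 0.0409). ATG4A and ATG4C stayed under 9 CPM in each library, with log2 fold changes of -0.24 ± 0.35 and 0.56 ± 0.35.

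All 5 selective cargo receptors passed the test, 4 of them lower. These proteins bind ubiquitin-marked cargo with one end and ATG8 proteins with the other. SQSTM1, the gene of p62 and the most abundant member per kilobase, was at 1085 and 1384 CPM in shCtrl and at 482 and 282 CPM in shFOXK2 (log2 fold change -1.69 ± 0.29, edgeR adjusted p = 0.000394). NBR1, a relative of p62, fell 3.65-fold from 263 and 241 to 57.7 and 80.2 CPM, with a log2 fold change of -1.87 ± 0.25 (edgeR, adjusted p = 7.32e-05). OPTN (ENSG00000123240, chr10:13099449-13138308, plus strand), which encodes optineurin, a receptor for damaged mitochondria and bacteria, fell furthest of the 5. It went from 149 and 126 to 16 and 22.8 CPM, or 14.1% of the shCtrl mean, a log2 fold change of -2.82 ± 0.28 (edgeR, adjusted p = 7.68e-06). The groups of these genes were far apart, although the shFOXK2 libraries of SQSTM1 differed 1.71-fold from each other.

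TAX1BP1 (ENSG00000106052, chr7:27739331-27844564, plus strand) and CALCOCO2, the gene of NDP52, are related receptors and went in opposite directions in this fit. TAX1BP1 rose from 116 and 92.8 to 160 and 211 CPM (log2 fold change 0.83 ± 0.25, edgeR adjusted p = 0.0132), and CALCOCO2 went from 97.8 and 76.1 to 53.6 and 53.8 CPM (log2 fold change -0.69 ± 0.25, edgeR adjusted p = 0.034). Neither call was firm. TAX1BP1 lost it without shCtrl replicate 2 (adjusted p = 0.0939) and without shFOXK2 replicate 2 (adjusted p = 0.15), and the correction for A content reversed it. CALCOCO2 lost its call without shCtrl replicate 1 (adjusted p = 0.131), without shFOXK2 replicate 1 (adjusted p = 0.0978) and without shFOXK2 replicate 2 (adjusted p = 0.106). The level of TAX1BP1 per kilobase was 0.790 and 0.747 times that of OPTN in shCtrl and 10.2 and 9.43 times in shFOXK2, a pair again chosen after the values were seen.

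Late steps held 4 members. EPG5, a tether that brings autophagosomes to late endosomes and lysosomes, fell from 31.7 and 25.7 to 12.4 and 9.39 CPM (log2 fold change -1.40 ± 0.29, edgeR adjusted p = 0.00152). STX17, the syntaxin of autophagosome fusion, overlapped between groups at 13.4 and 7.6 against 9.28 and 11.3 CPM (edgeR, adjusted p = 0.947). Of the transcription factors that drive lysosome genes, TFE3 went from 109 and 124 to 81.2 and 53.7 CPM and was called lower at -0.79 ± 0.26 (edgeR, adjusted p = 0.0235). TFE3 was no longer called without shFOXK2 replicate 2 (adjusted p = 0.205). TFEB, present at 6.42 CPM or less, went from 5.02 and 6.42 to 2.04 and 3.79 CPM and missed the threshold at -0.95 ± 0.38 (edgeR, adjusted p = 0.0537), although it passed without shCtrl replicate 1 (adjusted p = 0.0353) and without shFOXK2 replicate 2 (adjusted p = 0.0026).

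**Figure D3:**
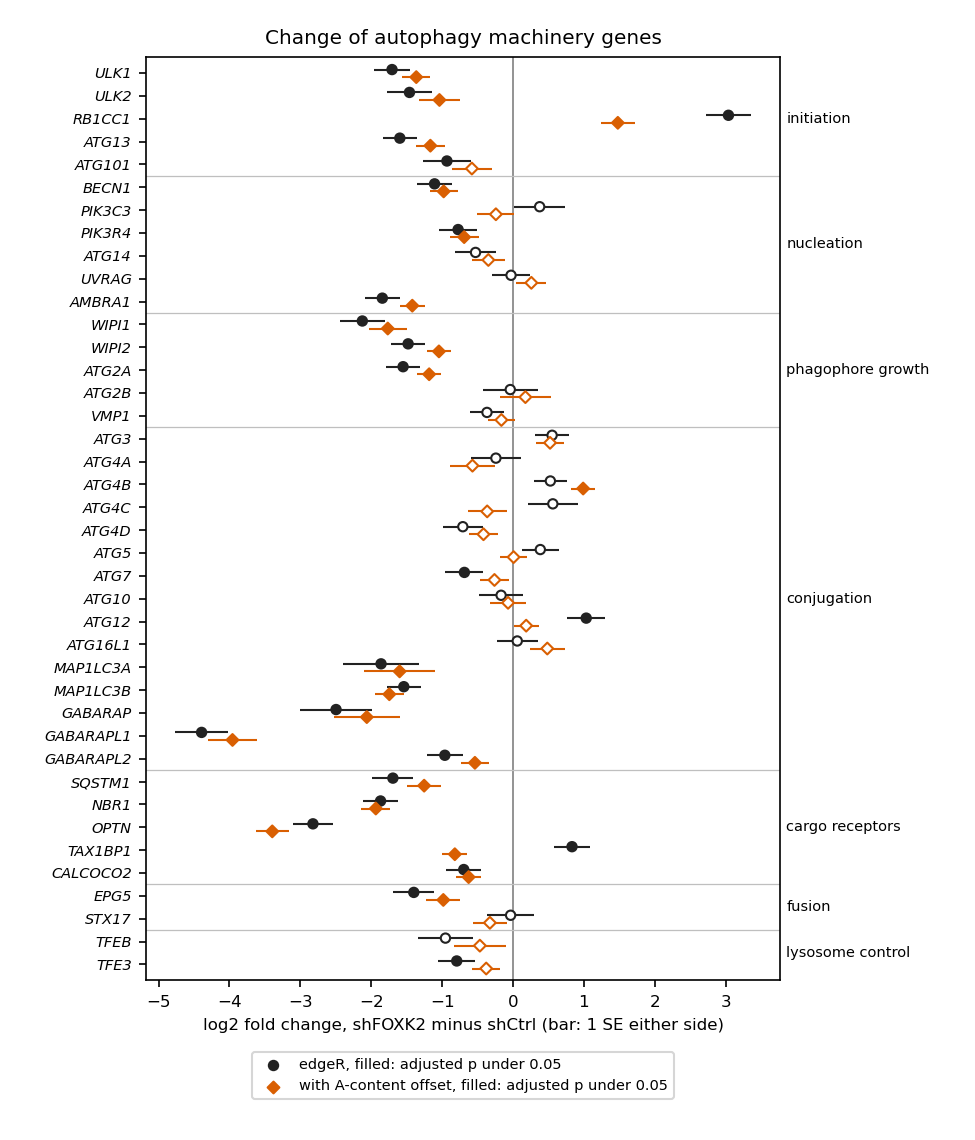
Log2 fold change (shFOXK2 minus shCtrl) of the 40 genes by step, with bars of 1 SE to either side, from the uncorrected fit (circles) and with an offset for transcript A content (diamonds), filled where the adjusted p is under 0.05. GABARAPL1 lies at -4.39 and -3.96, RB1CC1 moves from 3.04 to 1.48, and TAX1BP1 crosses zero from 0.83 to -0.82.

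The A content of a transcript, the share of adenine among its bases, moved with these changes. Over the 40 members the Spearman correlation of log2 fold change with A content was 0.52, and over the 14401 tested genes with a reference transcript it was 0.33, a description across genes that share the same 4 libraries. Among the 9 members at or above 30% A, 3 rose and 1 fell, the latter being OPTN at 31.1%. In that range 46.9% of all tested genes were called higher and 6.13% lower. Among the 10 members under 22% A, 7 fell and none rose, where 33.4% of all tested genes were called lower and 14.3% higher. From 22% to 26%, 8 of 9 members fell, against 34.1% of all genes, and from 26% to 30%, 6 of 12 fell, against 22%.

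RB1CC1, ATG12 and TAX1BP1 hold 34.5%, 32.2% and 34.9% A, and the 3 members that rose were thus all among the richest in A. The same composition also separated replicates. The ratio of shCtrl replicate 1 to shCtrl replicate 2 correlated with A content at 0.83 over the members (0.64 over all genes with a transcript), and that of the shFOXK2 libraries at -0.37 (-0.26 over all). The members with the widest gap between controls, ATG2B (2.87-fold), PIK3C3 (1.91-fold), ATG4C (1.76-fold) and STX17 (1.76-fold), were not called.

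With an offset that removes the trend of counts on A content in each library, 20 members were called lower and 2 higher, where 21.1% of all tested genes were lower and 30.6% higher. After the offset the Spearman correlation of log2 fold change with A content was 0.00018 over the tested genes but still 0.28 over the members. The median of the members became -0.58 while that of all tested genes became 0.14. RB1CC1 stayed higher at 1.48 (edgeR with offset, adjusted p = 0.000946), ATG12 was no longer called at 0.19 (adjusted p = 0.401), and ATG4B was called higher at 0.99 (adjusted p = 0.00113). TAX1BP1 turned to -0.82 and was called lower (adjusted p = 0.00382). GABARAPL1 at -3.96 and OPTN at -3.40 kept falls past the threshold (adjusted p = 5.68e-05 and 2.25e-05), whereas ATG101, ATG7 and TFE3 were no longer called (adjusted p = 0.107, 0.312 and 0.139). The part of A content in the falls and rises was not tested beyond these offsets.

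**Figure D4:**
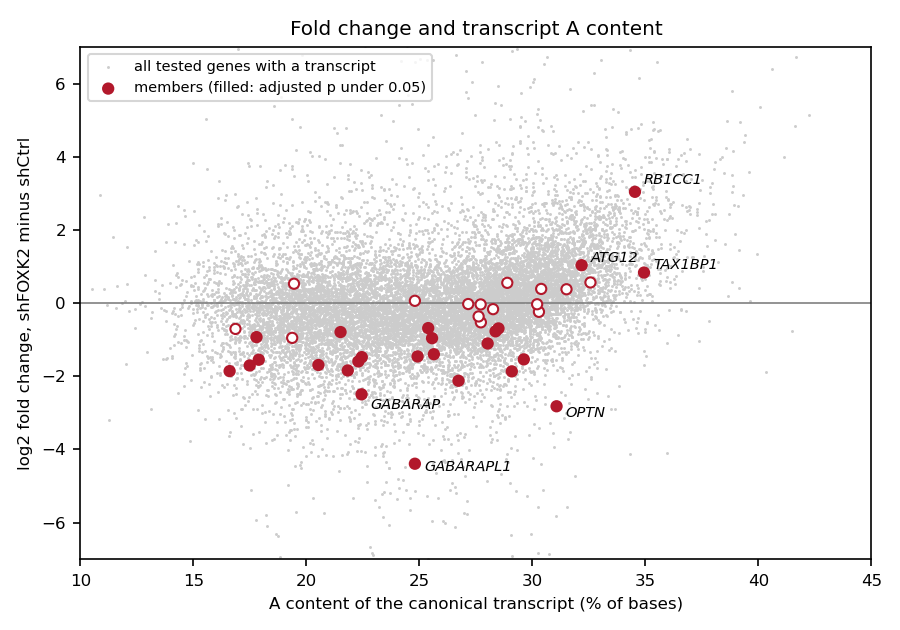
Log2 fold change (shFOXK2 minus shCtrl) against the A content of the reference transcript in percent of bases, for all tested genes with a transcript (grey, a few beyond the axis limits not drawn) and the 40 members (red, filled where the adjusted p is under 0.05). The grey cloud climbs from a median of -0.30 under 22% A to 0.75 at or above 30%, and GABARAPL1, GABARAP and OPTN lie in its lower part while RB1CC1, ATG12 and TAX1BP1 lie on its right side above zero.

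Falls of 15 members and the rise of RB1CC1 kept direction and call in each of the 10 alternative fits that tested them against no change and in the 4 fits that leave out 1 library, as 13.8% of all tested genes did lower and 13.8% higher. The 15 were ULK1, ULK2, ATG13, BECN1, AMBRA1, WIPI1, WIPI2, ATG2A, MAP1LC3B, GABARAP, GABARAPL1, SQSTM1, NBR1, OPTN and EPG5. GABARAP was not tested with at least 10 counts in every library. The genes span the initiating, nucleating, membrane, conjugation, cargo and fusion steps.

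Levels per kilobase differed widely within the machinery. In shCtrl the mean ran from 435 CPM per kb for SQSTM1, followed by VMP1 at 135, GABARAPL2 at 112, MAP1LC3B at 94.4 and GABARAPL1 at 62.0, down to 0.896 for PIK3C3. SQSTM1, VMP1 and GABARAPL2 kept ranks 1 to 3 in shFOXK2, while GABARAPL1 moved from rank 5 to rank 28 and OPTN from rank 9 to rank 24.

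Promoters of 34 of the 40 members were matched in RefSeq (GRCh38.p14, 250 bases before to 50 after the start site of each gene), without ATG4D, EPG5, MAP1LC3A, RB1CC1, STX17 and UVRAG. TGTTTAC, the forkhead motif that the study relates to FOXK2, was searched on both strands and occurred in the window of 1 member, CALCOCO2, beside 3.41% of all 27305 promoters and 2.24% of those of tested genes. TCACGTGA, the element that TFEB and TFE3 are known to bind, occurred in 1 member, ATG3, beside 1.04% of all promoters and 1.86% of those of tested genes. CACGTG, its core and part of that longer motif, occurred in ATG3 and ATG14, or 5.88% of the matched members, beside 7.43% of all promoters and 10% of those of tested genes. The windows of the gene with the largest fall and of the members that hold a long motif are printed below 5′ to 3′ on the strand of the gene, with motif matches in capitals. For GABARAPL1 the window is chr12:10212627-10212926 (plus strand), for CALCOCO2 chr17:48830785-48831084 (plus strand, with the match in its reverse complement GTAAACA) and for ATG3 chr3:112561913-112562212 (minus strand).
GABARAPL1: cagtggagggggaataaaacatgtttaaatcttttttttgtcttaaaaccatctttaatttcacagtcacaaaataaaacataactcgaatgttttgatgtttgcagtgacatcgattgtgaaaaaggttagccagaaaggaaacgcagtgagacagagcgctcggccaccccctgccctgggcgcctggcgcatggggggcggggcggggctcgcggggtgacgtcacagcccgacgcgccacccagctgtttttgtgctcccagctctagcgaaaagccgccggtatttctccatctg
CALCOCO2: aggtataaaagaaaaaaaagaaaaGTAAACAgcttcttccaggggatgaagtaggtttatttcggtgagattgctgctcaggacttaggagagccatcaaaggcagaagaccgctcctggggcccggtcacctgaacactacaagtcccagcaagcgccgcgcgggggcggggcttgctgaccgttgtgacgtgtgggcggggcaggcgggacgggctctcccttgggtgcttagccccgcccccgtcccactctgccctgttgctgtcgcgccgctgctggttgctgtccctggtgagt
ATG3: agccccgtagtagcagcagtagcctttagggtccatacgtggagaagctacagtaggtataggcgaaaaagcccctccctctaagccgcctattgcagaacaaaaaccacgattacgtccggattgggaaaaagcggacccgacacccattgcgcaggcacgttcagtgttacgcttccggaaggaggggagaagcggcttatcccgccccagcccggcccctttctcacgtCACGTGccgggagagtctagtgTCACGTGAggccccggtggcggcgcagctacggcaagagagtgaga
GABARAPL1 holds none of the 3 motifs in these 300 bases, CALCOCO2 was 1 of the members with a small fall, and ATG3 did not pass the test. A match is a run of letters and not a measured site, and the RefSeq start need not be the start used in OVCAR5. For some members, among them ATG5 and AMBRA1, the window lies wholly inside the span of the gene in GENCODE v44. The ATG5 window held 27.7% GC and the AMBRA1 window 36.3% GC. Absence of a motif there need not describe the promoter in use.

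The other genes of the pathway, in 5 lists of 126 symbols of which 123 were tested, were lower in the same fit more often than higher in count, with 61 called lower and 6 called higher and a median log2 fold change of -0.67. These counts and those of each list stand against 22.7% lower and 25.7% higher among all tested genes. With the A-content offset 51 were called lower and 11 higher (median -0.46). In that fit, here and for each list, the shares of all tested genes were 21.1% lower and 30.6% higher. Of 34 lysosome genes 24 were called lower and none higher (median -0.94). The largest fall was that of CTSF, a cysteine protease of the lysosome, from 17.6 and 19.8 to 0.914 and 1.37 CPM (log2 fold change -4.01 ± 0.37, edgeR adjusted p = 4.73e-06). LAMP1, a main protein of the lysosomal membrane, fell from 624 and 688 to 423 and 385 CPM (log2 fold change -0.70 ± 0.23, edgeR adjusted p = 0.0228), and was not called with the A-content offset (adjusted p = 0.231), with the GC-content offset (adjusted p = 0.183) or without shFOXK2 replicate 2 (adjusted p = 0.117).

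Further receptors and regulators of selective autophagy numbered 20, of which 10 were called lower and 2 higher (median -0.69). PINK1, the kinase that marks damaged mitochondria, had the largest fall, from 23.5 and 28.2 to 1.69 and 2.25 CPM (log2 fold change -3.70 ± 0.34, edgeR adjusted p = 4.39e-06). SEC62, a receptor for the endoplasmic reticulum, had the largest rise, from 128 and 81.2 to 437 and 560 CPM (log2 fold change 2.25 ± 0.28, edgeR adjusted p = 3.82e-05). TBK1, the kinase that phosphorylates optineurin and p62 and the only other gene of that list called higher, was at 1.25 in log2 fold change and at -0.04 with the A-content offset, and was not called with the GC-content offset (adjusted p = 0.153). TBK1 was named after its value was seen.

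Of 22 tested genes in a list of other core and fusion genes, 12 were called lower and 1 higher (median -0.67). ZFYVE1, which encodes DFCP1, a marker of the site where phagophores form, fell from 53.9 and 51.5 to 8.44 and 6.92 CPM (log2 fold change -2.78 ± 0.28, edgeR adjusted p = 9.17e-06). ATG16L2, a paralog of ATG16L1, was the gene called higher, from 12.8 and 13.4 to 58.8 and 42.1 CPM (log2 fold change 1.95 ± 0.28, edgeR adjusted p = 0.000116). MAP1LC3B2, nearly identical in sequence to MAP1LC3B and named for that reason after its values were seen, had 14, 11, 4 and 3 counts, so that reads shared by the 2 genes could be lost from either.

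Nutrient and energy sensors had the median nearest to that of all tested genes, at -0.26, with 9 of 34 called lower and 3 higher, so that the share called lower was near the 22.7% of all tested genes. With the A-content offset 6 were lower and 6 higher, and the median was 0.09. DDIT4, an inhibitor of the growth kinase complex mTORC1, fell from 25.6 and 35.6 to 7.38 and 7.42 CPM (log2 fold change -2.05 ± 0.30, edgeR adjusted p = 0.00013). PRKAA2, a catalytic subunit of the energy sensor AMPK, was at 12.5 and 4.36 CPM in shCtrl and at 20.9 and 30.1 CPM in shFOXK2 (log2 fold change 1.59 ± 0.41, edgeR adjusted p = 0.00611), and its controls stood far apart. The log2 fold change of PRKAA2 was 2.51 without shCtrl replicate 1 and 0.96 without shCtrl replicate 2, and with the GC-content offset it was 0.61 and not called (adjusted p = 0.105). FNIP1 and FNIP2, partners of folliculin, were the others called higher, at 1.07 and 0.91, and were named after their values were seen. Both lost the call without shCtrl replicate 2 (adjusted p = 0.269 for FNIP1 and 0.307 for FNIP2), FNIP1 also with the GC-content offset (adjusted p = 0.122) and FNIP2 without shFOXK2 replicate 2 (adjusted p = 0.0527). Without shCtrl replicate 1 the log2 fold changes were 2.00 and 1.47.

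Transcription factors tied to autophagy and the lysosome were tested for 13 of 14 genes, with 6 called lower and none higher (median -0.36). With the A-content offset the median was 0.06, with 6 lower and 1 higher. SREBF2, the sterol regulator, had the largest fall among those of sufficient level, from 119 and 131 to 14.6 and 18.4 CPM (log2 fold change -2.92 ± 0.27, edgeR adjusted p = 4.39e-06). MITF, a relative of TFEB, was called lower at -0.78 ± 0.28 (edgeR, adjusted p = 0.0339). MITF lost the call without shCtrl replicate 1 (adjusted p = 0.164), without shFOXK2 replicate 1 (adjusted p = 0.139) and with library size alone as scaling (adjusted p = 0.0614). FOXO3, known as an activator of autophagy genes, overlapped between groups at 55.5 and 42.9 against 55.3 and 40.9 CPM (log2 fold change -0.03 ± 0.27, edgeR adjusted p = 0.931), and its value was 0.38 with the A-content offset.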

How the data were processed

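Polyadenylated RNA of 4 OVCAR5 cultures was sequenced as single-end reads. Per the labels and methods, the authors aligned reads to hg38 with STAR 2.5.2, counted reads per gene with HTSeq and tested with edgeR. The deposited values are raw counts per gene symbol, 1 table per library, without normalization. The gene annotation and the strand setting of the counting are not given in the sources used here, and 27 members overlap a gene on the opposite strand in GENCODE v44, so their reads may be shared with or lost to it.

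From these counts, genes were filtered with filterByExpr, scaled with TMM and tested in edgeR 4.0.16 (R 4.3.3) by its 2-sided quasi-likelihood F test, with Benjamini-Hochberg adjustment over 16417 genes and a threshold of 0.05. SE was taken as the size of the log2 fold change over the root of F. CPM uses the TMM factors. A content and length come from GENCODE v44 canonical transcripts, found for all 40 members and 87.7% of tested genes, and the offset is a lowess trend per library with a span of 0.2. Alternatives were a replicate block, DESeq2 1.42.0, other scalings, other filters, composition offsets, a minimum fold change and leaving out each library. On simulated counts of 15885 genes the fit recovered 73.6% of changes of 1 and 99.1% of changes of 2 on the log2 scale, with 3.3% false calls. Those counts held 87 genes changed by 1 and 113 changed by 2, the same spread setting for every gene and no trend on A content. The real libraries differ from that setting, so these shares are not error rates of the calls above. Intervals from 2 libraries per group are wide, and floors cover counting error only. Replicates of a group differed by more than counting noise, with a chi-square per gene of 38.1 for shCtrl and 27.9 for shFOXK2.

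The members and lists were chosen with earlier results of these data known. Named were the 40 members, FOXK2 and FOXK1, the largest called rise and fall of each pathway list among genes whose mean log2 CPM was 3 or more, and MITF, FOXO3 and LAMP1. Lists are described by counts and medians with no list test.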

Additional observations from a re-analysis of the deposited data

How the results depend on the processing

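Of the comparisons of the 40 members with their values under the 10 other fits, 341 kept direction and side of the threshold, 19 lost and 15 gained the call, and 23 changed sign. GABARAP and MAP1LC3A were not tested with at least 10 counts in every library. Leaving out 1 library gave 130, 17, 4 and 9. A lone library was assumed to vary like the other group. A minimum log2 fold change of 1 left 12 members lower and 1 higher. Leaving out 1 library gave 17 to 22 lower and 1 to 4 higher, beside 19.3% to 20.3% and 19.4% to 24.1% of all tested genes, with 1 higher both without shCtrl replicate 2 and without shFOXK2 replicate 2.

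The correlation of deviations between same-numbered replicates was -0.113. With 2 libraries per group it cannot decide whether the replicate numbers mark a pairing. With a replicate block PIK3R4, ATG7 and CALCOCO2 lost their calls (adjusted p = 0.0573, 0.0882 and 0.085) and TFEB gained one (adjusted p = 0.0448), MITF among the other pathway genes named lost its call (adjusted p = 0.0611), ATG2B was at 0.14 and STX17 at 0.017. With the crossed pairing, added after seeing the data, 50.9% of all tested genes were called instead of 48.4%, ATG2B was at 0.13 and STX17 at 0.011.

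With the A-content offset, step medians were -1.04 for initiation and for phagophore growth, -1.25 for cargo receptors, -0.42 for lysosome control and -0.58 for all members. With the GC-content offset they were -1.16, -1.04, -1.29 and -0.54 for the same 4 steps, and with the A-content offset and the block -1.06, -1.05, -1.29 and -0.47. Phagophore growth was at -1.58 without a filter. Leave-one-out medians ran from -1.82 to -1.38 for initiation, -0.80 to -0.61 for nucleation, -1.64 to -1.41 for phagophore growth, -0.64 to -0.13 for conjugation, -1.84 to -1.39 for cargo receptors, -1.03 to -0.44 for fusion, -1.04 to -0.81 for lysosome control and -0.93 to -0.66 for all members.

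Signs changed as follows, in log2 fold change. With the A-content offset PIK3C3 was at -0.24, UVRAG at 0.26, ATG2B at 0.18, ATG4C at -0.36, TAX1BP1 at -0.82 and FOXK2 at 0.0623. With the block as well these were -0.25, 0.24, 0.32, -0.35, -0.82 and 0.0576. With the GC-content offset PIK3C3 was at -0.27, UVRAG at 0.20, ATG4C at -0.51, ATG5 at -0.28 and FOXK2 at 0.0389. ATG16L1 was at -0.040 without a filter and UVRAG at 0.0066 with library size alone. With at least 10 counts in every library UVRAG was at 0.0191, ATG2B at 0.0135 and STX17 at 0.0175. Leaving out 1 library gave ranges that crossed zero for PIK3C3 (-0.0828 to 0.89), UVRAG (-0.30 to 0.15), ATG2B (-0.68 to 0.88), ATG4A (-0.64 to 0.0374), ATG16L1 (-0.39 to 0.36) and STX17 (-0.45 to 0.40).

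In the lists, a minimum log2 fold change of 1 left 2 other core genes, 3 selective receptors, 11 lysosome genes and 3 nutrient sensors lower, and 1 selective receptor and 0 nutrient sensors higher. In that fit 8.1% of all tested genes were lower and 12.5% higher. With the A-content offset 1 selective receptor, 2 lysosome genes, 6 nutrient sensors and 1 transcription factor were higher, with the GC-content offset 1 selective receptor, 1 lysosome gene and 2 transcription factors, and with the A-content offset and the block 1, 2, 6 and 2. The shares of all tested genes called higher in these fits were 30.6%, 30.9% and 31%, in the same order. Without 1 library, 5 to 11 other core genes were lower (5 without shFOXK2 replicate 2) and 1 to 2 higher, 0 to 1 lysosome genes were higher and 1 to 5 nutrient sensors were higher. The cause of these shifts was not tested. The medians of all tested genes ranged from -0.06 without a filter to 0.14 with the A-content offset.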
